A study of Mus musculus with 13 samples.

Results

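The genes of retinoic acid synthesis and response were examined in bulk RNA-seq of CD45- thymic cells, a non-hematopoietic fraction with fibroblasts, endothelial cells and thymic epithelial cells (TECs). The 9 members were chosen by name and matched by mouse symbol: Stra6, Rdh10, Dhrs3, Aldh1a1, Aldh1a2, Aldh1a3, Crabp1, Cyp26b1 and Rarb, 9 of the 53379 gene identifiers in the count table. All mice were 2-month-old wild-type C57BL/6 mice. The groups were steady state (4 libraries, called PBS in the series' design and untreated in the sample labels) and sublethal total body irradiation (TBI), with 3 libraries each at days 1, 4 and 7 after it. The labels do not say whether libraries came from separate or pooled animals, so p-values measure the spread between these libraries.

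Retinoic acid is made from retinol, the circulating form of vitamin A, in a pair of oxidation steps. Retinol is first converted, reversibly, to retinaldehyde, and retinaldehyde is then oxidized irreversibly to retinoic acid, which binds nuclear receptors (RARs, paired with RXRs) that sit on DNA at retinoic acid response elements. CYP26 enzymes degrade retinoic acid, and in many tissues mesenchymal and mesothelial cells are known sources of it.

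All 9 genes passed the filter on low counts, as did 19984 genes in all. Total counts ran from 15721866 to 52056896 per library (median 44078906). Levels are given as CPM (counts scaled to a common library size) after TMM normalization, which scales each library for its composition. A gene was called changed at an adjusted p-value of 0.05 or less, with the adjustment made over all genes tested. The 4 steady-state libraries are named by the PBS day and replicate in their column names and are given in the order day 1 replicate 2, day 4 replicate 2, day 7 replicate 1 and day 7 replicate 2. The libraries after TBI are given in the order of their replicate numbers.

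Some libraries stood apart from the others. These were day 1 replicate 1, day 4 replicates 2 and 3 and day 7 replicate 2. They lay at one end of the first principal component of the differences within conditions (45.7% of that variance). Their values ran from -0.626 (day 1 replicate 1) to -0.197 (both day 4 libraries). The next library, PBS day 1 replicate 2, lay not far from them at -0.115. This division was made after the data were seen. Ptprc, which encodes CD45, the antigen used to remove hematopoietic cells, stood at 606.5 CPM in day 7 replicate 2 and 224 CPM in day 7 replicate 3, and at 4.07 to 119 CPM in the other 11 libraries. The summed level of 9 thymocyte markers ran from 198 to 672 CPM at steady state, from 95.4 to 120 CPM on day 1, from 23.4 to 35.8 CPM on day 4 and from 174 to 4210 CPM on day 7. The defining markers of TECs (Epcam, 14.0 to 155 CPM), fibroblasts (Pdgfra, 616 to 1282 CPM), endothelial cells (Pecam1, 199 to 432 CPM) and mesothelial cells (Upk3b, 212 to 1994 CPM) were present in every library.

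Promoter sequences from RefSeq (GRCm38.p6), which run from 250 bases before to 50 bases after a transcription start, were at hand for 7 of the 9 genes, in 13 windows. Rarb, Crabp1, Dhrs3, Stra6, Aldh1a1, Aldh1a2 and Cyp26b1 had an entry. The promoters of Rarb and Crabp1 are shown here, the former because it holds a match to a repeat that retinoid receptors are known to bind and the latter because Crabp1 was the one member called changed. Capitals mark the match, a direct repeat of the retinoid receptor half-site with a spacer of 5 bases (DR5).
Rarb: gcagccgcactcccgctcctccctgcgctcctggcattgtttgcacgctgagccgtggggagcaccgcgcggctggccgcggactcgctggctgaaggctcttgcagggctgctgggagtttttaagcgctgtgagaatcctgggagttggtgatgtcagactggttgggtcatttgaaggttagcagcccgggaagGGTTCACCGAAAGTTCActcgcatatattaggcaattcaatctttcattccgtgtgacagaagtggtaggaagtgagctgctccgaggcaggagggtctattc
Crabp1: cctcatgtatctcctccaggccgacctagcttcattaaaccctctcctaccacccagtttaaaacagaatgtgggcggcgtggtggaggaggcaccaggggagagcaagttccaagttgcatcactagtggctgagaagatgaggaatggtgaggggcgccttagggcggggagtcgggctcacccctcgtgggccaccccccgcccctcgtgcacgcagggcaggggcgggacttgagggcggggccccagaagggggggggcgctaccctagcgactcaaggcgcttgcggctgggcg

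The Rarb window lies on the minus strand of chromosome 14 (chr14:16575427-16575726). The match covers bases 198 to 214 of it, from 53 to 37 bases before the transcription start of that window. On the minus strand the annotated Rarb gene begins at base 16819156, so this start lies inside the gene. The Rarb counts cover the whole gene and are not split by start. Direct repeats with spacers of 1, 2 and 5 bases were searched on both strands. A DR5 was found in 32 of 32851 promoter windows of 300 bases (0.0974%), a repeat with a spacer of 2 bases in 88 (0.268%) and one with a spacer of 1 base in 73 (0.222%). Of the 13 windows of members, 1 held a match, that of Rarb. The Crabp1 window lies on the plus strand of chromosome 9 (chr9:54764498-54764797) and holds none of these letters. A match is a description of the sequence only.

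In CD45- cells, the one member of the 9 that passed the edgeR test was Crabp1, which encodes cellular retinoic acid binding protein 1, a cytosolic carrier of retinoic acid. Crabp1 rose 3.67-fold on day 1 after TBI and was lower again on days 4 and 7. None of the genes of retinol uptake, retinoic acid synthesis, its degradation or the receptor passed the edgeR test in any comparison. In bulk samples, fewer cells of a type and less RNA per cell cannot be told apart, and this holds for every gene described here.

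**Figure D1:**
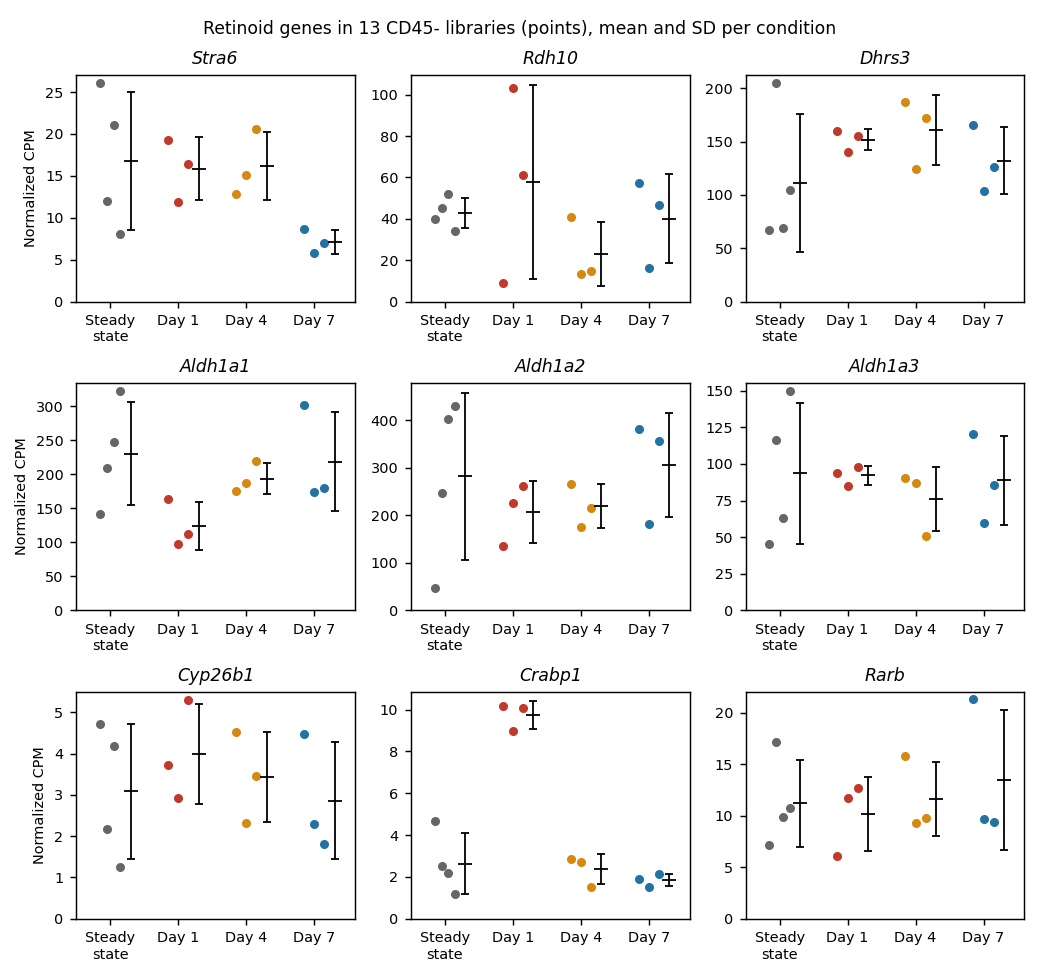
Normalized CPM (y axis, linear, from 0) of the 9 genes in each of the 13 libraries (points), by condition (x axis); the black bars give the mean and SD of the condition. The 3 day 1 libraries of Crabp1 sit between 8.96 and 10.2 CPM, above all 10 others, while the conditions overlap at day 1 and steady state for each of the other 8 genes.

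Crabp1 (ENSMUSG00000032291, chr9:54764748-54773110 in GRCm38, plus strand) stood at 4.67, 2.53, 2.17 and 1.16 CPM at steady state. After TBI it stood at 10.2, 8.96 and 10.1 CPM on day 1, at 2.84, 2.7 and 1.54 CPM on day 4 and at 1.91, 1.54 and 2.11 CPM on day 7. All 3 day 1 libraries were above all 10 other libraries, and the other conditions overlapped with each other. These levels rest on 193 to 481 counts in the day 1 libraries and on 24 to 213 counts in the others. The mean was 2.63 ± 1.48 CPM (SD, n = 4) at steady state and 9.73 ± 0.666 CPM (SD, n = 3) on day 1, a difference of 1.88 on the log2 scale (SE 0.398, 95% interval 1.02 to 2.74, adjusted p = 0.0246, edgeR's quasi-likelihood F-test, Benjamini-Hochberg adjusted). Between days 1 and 4, Crabp1 fell by 2.05 on the log2 scale (SE 0.442, edgeR adjusted p = 0.0374). To day 7 it fell by 2.39 (SE 0.446, edgeR adjusted p = 0.00902), a 5.25-fold difference. These comparisons share the day 1 libraries. On days 4 and 7 the differences from steady state were -0.17 (95% interval -1.05 to 0.70) and -0.52 (-1.39 to 0.36), and neither passed the test.

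Day 1 replicate 1, one of the libraries that stood apart, had a Crabp1 level of 10.2 CPM beside 8.96 and 10.1 CPM in the other day 1 libraries. Among the libraries that stood apart, day 4 replicates 2 and 3 and day 7 replicate 2 were at 2.7, 1.54 and 1.54 CPM, and no steady-state library was among them. The column names end in tags whose meaning is not stated. They were grouped here into families, by whether they begin with k3, with kk or with neither. Day 1 was also higher within such sets. It stood at 8.96 and 10.1 CPM against 4.67 and 2.17 CPM at steady state in one set (all tagged mm). In another it stood at 10.2 CPM (tag kkm1) against 1.16 CPM (tag kkmm). The third set held no day 1 library.

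The size of the difference was steadier than its call. Over 17 alternative settings, the log2 fold change of Crabp1 on day 1 against steady state ran from 1.64 to 2.35 and passed the edgeR or DESeq2 threshold in 8 (adjusted p from 5.75e-05 to 0.134). Leaving out 1 library ended the call in 5 of 7 cases: PBS day 7 replicate 1 (adjusted p = 0.0702 in edgeR), PBS day 7 replicate 2 (0.0546) and day 1 replicates 1 (0.0814), 2 (0.0644) and 3 (0.0656). Between days 1 and 4, the log2 fold change ran from -2.17 to -1.75 over 16 settings, with the call kept in 5, and edgeR's adjusted p was 0.0803 to 0.220 whichever of the 6 libraries was left out. Between days 1 and 7 it ran from -2.54 to -2.12, with the call kept in 13 of 16 settings and, in edgeR, with each of the 6 libraries left out in turn. That call was lost without the 4 libraries that stood apart (edgeR adjusted p = 0.190), without day 7 replicates 2 and 3 (0.354) and with the thymocyte score as a covariate (0.105).

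**Figure D2:**
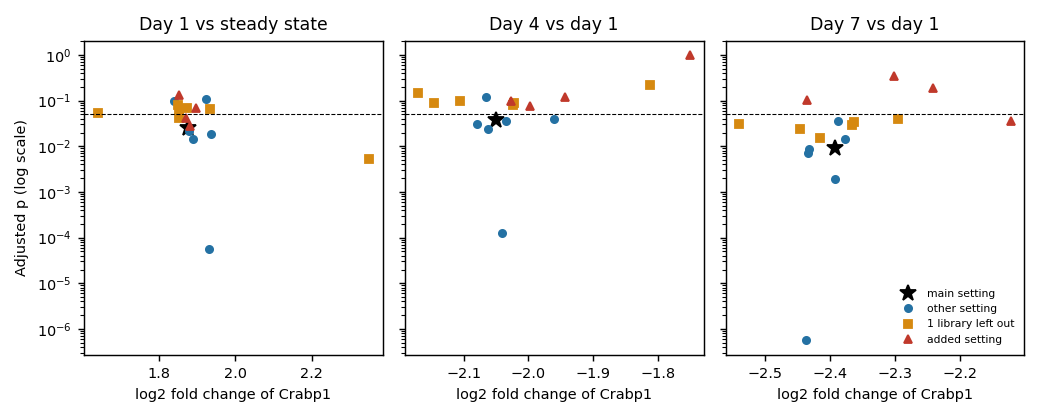
Log2 fold change of Crabp1 (x axis) against its adjusted p (y axis, log scale) in each of 3 comparisons, under the main setting (star) and each alternative setting (other symbols); the dashed line is at 0.05. The fold changes stay between 1.64 and 2.35 on day 1 against steady state, while the adjusted p falls on both sides of the line in every panel.

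On day 1, 1 of the 9 genes was called against steady state, where edgeR called 2.35% of all genes tested. DESeq2 also called 1 (7.00% of all genes), and 2 members had an unadjusted p under 0.05 in edgeR (17.2% of all genes). Crabp1 was the 1 member whose day 1 and steady-state libraries did not overlap, as they did not for 15.8% of all genes.

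On day 4, edgeR called 0 of 9 members against steady state, beside 0.290% of all genes. DESeq2 called 0 (3.23% of all genes), 0 had an unadjusted p under 0.05 in edgeR (13%) and 0 had libraries that did not overlap (14.7%). On day 7, edgeR again called 0 of 9, beside 0.00500% of all genes. Stra6 was the 1 member called by DESeq2 (5.41% of all genes) and the 1 with an unadjusted p under 0.05 in edgeR (13.5%), and 0 members had libraries that did not overlap (7.49%).

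Between the time points after TBI, edgeR called 1 of 9 members on day 4 against day 1 (1.43% of all genes), 1 of 9 on day 7 against day 1 (8.13%) and 0 of 9 on day 7 against day 4 (3.90%). The called member was Crabp1 in the first 2 comparisons. DESeq2 called 1, 2 and 1 members (4.80%, 14.7% and 9.60% of all genes), and 1, 3 and 1 had an unadjusted p under 0.05 in edgeR (13.7%, 23.9% and 18.7%). The libraries did not overlap for 2, 3 and 1 members, beside 26.3%, 27.5% and 26.2% of all genes.

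The median log2 fold change of the 9 members against steady state was -0.02 on day 1, -0.17 on day 4 and -0.08 on day 7, beside -0.10, -0.13 and 0.00 for all genes tested. Each median of the members lay within 0.1 log2 units of that of all genes.

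**Figure D3:**
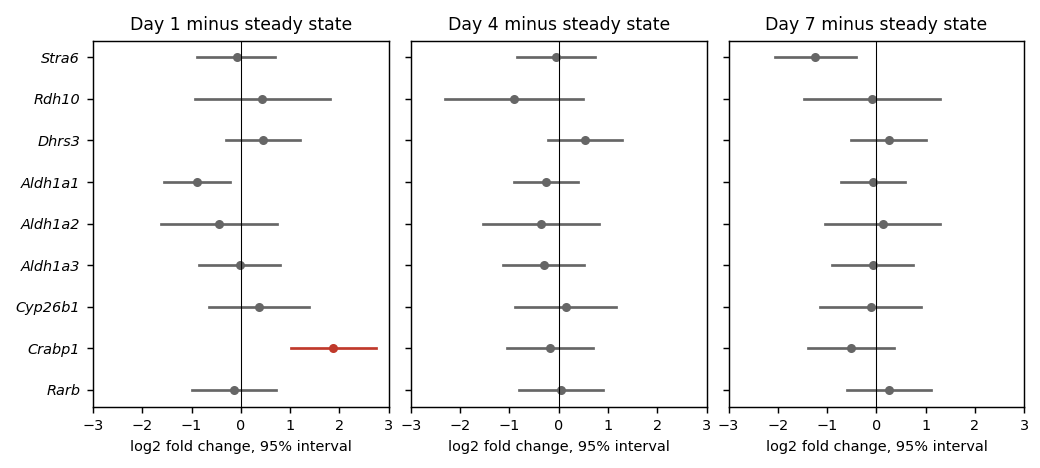
Log2 fold change (x axis) of each gene (y axis) on days 1, 4 and 7 minus steady state, with its 95% interval from edgeR; red marks an adjusted p of 0.05 or less. Crabp1 on day 1, at 1.88, is the one red point, and the intervals of Aldh1a1 on day 1 and Stra6 on day 7 also lie on one side of 0 without passing the adjusted threshold.

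Stra6 encodes the membrane receptor that takes up retinol from its plasma carrier, retinol binding protein. Stra6 (ENSMUSG00000032327) stood at 26.1, 12, 21.1 and 8.09 CPM at steady state. It stood at 19.3, 11.8 and 16.4 CPM on day 1, at 12.8, 15.1 and 20.6 CPM on day 4 and at 8.64, 5.78 and 6.97 CPM on day 7. The day 7 libraries lay below all day 1 and day 4 libraries, but 1 steady-state library (8.09 CPM) lay among them. On day 7 the difference from steady state was -1.24 on the log2 scale (SE 0.378, edgeR adjusted p = 0.154), a 2.36-fold difference in the fitted means, and it did not pass the test. Against day 1 and day 4 the differences were -1.15 (edgeR adjusted p = 0.0924) and -1.18 (0.120). With DESeq2 all 3 passed, at adjusted p-values of 0.0378, 0.0318 and 0.0317, so that the call depended on the tool.

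The day 7 libraries, low in Stra6, were also low in TEC markers. The summed level of 9 TEC markers ran from 761 to 1470 CPM on day 7, from 2851 to 4553 CPM on day 4, from 1411 to 2773 CPM on day 1 and from 1007 to 3650 CPM at steady state. At steady state the libraries with 26.1 and 21.1 CPM of Stra6 were also those with the higher TEC sums. Within day 4 the order was the reverse. There, replicates 1, 2 and 3 had TEC sums of 4553, 3938 and 2851 CPM and 12.8, 15.1 and 20.6 CPM of Stra6. The mean of Stra6 on day 4 was 16.2 CPM, beside 15.8 CPM on day 1 and 16.8 CPM at steady state. Day 7 replicates 2 and 3 were also those with the most thymocyte marker RNA. The part of either in the level of Stra6 was not tested. Without those libraries, day 7 rests on 1 library and the log2 difference from steady state was -0.92 (edgeR adjusted p = 0.974, with that library assumed to vary like the other conditions).

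Rdh10 encodes the retinol dehydrogenase that carries out the first oxidation, from retinol to retinaldehyde. Rdh10 (ENSMUSG00000025921) stood at 39.9, 45.3, 51.8 and 34.3 CPM at steady state, at 9.19, 103 and 61.0 CPM on day 1, at 40.8, 13.6 and 14.7 CPM on day 4 and at 57.2, 16.1 and 46.8 CPM on day 7. The steady-state libraries were close together (CV 17.4%), whereas those of day 1 spread 11.2-fold, and all conditions after TBI overlapped with steady state. The 4 libraries that stood apart were the 4 lowest, at 9.19 to 16.1 CPM, and the other 9 stood at 34.3 to 103 CPM. Plvap, an endothelial marker, divided the same libraries, at 21.5 to 64.2 CPM against 104 to 507.5 CPM. Pecam1, another endothelial marker, divided them in the opposite direction, at 324 to 432 CPM in those 4 libraries against 199 to 320.4 CPM in the other 9.

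No difference of Rdh10 passed the test. On day 4 the log2 difference from steady state was -0.90 (95% interval -2.31 to 0.50, edgeR adjusted p = 0.534). Without the 4 libraries that stood apart it was -0.07, with day 4 resting on 1 library, and on day 1 it was 0.94 in place of 0.43. What sets these 4 libraries apart was not tested.

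Dhrs3 encodes a retinaldehyde reductase that returns retinaldehyde to retinol and is induced by retinoic acid in many cells. Dhrs3 (ENSMUSG00000066026) stood at 67.1, 205, 68.7 and 104 CPM at steady state. After TBI it stood at 160, 140 and 156 CPM on day 1, at 187, 124 and 172 CPM on day 4 and at 166, 104 and 126 CPM on day 7. All conditions overlapped, with the 1 steady-state library at 205 CPM above all others and those at 67.1 and 68.7 CPM below all others. The mean was 111 ± 64.8 CPM (SD, n = 4) at steady state and 152 ± 10.2 CPM (SD, n = 3) on day 1, a log2 difference of 0.45 (95% interval -0.30 to 1.20, edgeR adjusted p = 0.542) that did not pass the test.

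The 3 retinaldehyde dehydrogenases carry out the irreversible step to retinoic acid. Per kilobase of exon, Aldh1a2 had the highest level of all 9 genes, at a mean of 113 CPM per kb over the 13 libraries. Of the other two dehydrogenases, Aldh1a1 stood at 39.4 and Aldh1a3 at 19.1 CPM per kb, with Dhrs3 (46.8) above both. None of the 3 passed the test in any comparison.

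Aldh1a2 (ENSMUSG00000013584), known from mesenchymal and mesothelial tissues, stood at 47.0, 246, 402 and 430 CPM at steady state. After TBI it stood at 135, 226 and 261 CPM on day 1, at 266, 174 and 216 CPM on day 4 and at 381, 181 and 356 CPM on day 7. The steady-state libraries spanned 9.16-fold and enclosed every library of the later days. On day 1 the log2 difference was -0.44 (95% interval -1.62 to 0.74, edgeR adjusted p = 0.727).

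The library with the least Aldh1a2, PBS day 1 replicate 2, also had the least mesothelial marker RNA. Its summed level of 5 mesothelial markers was 555 CPM, and the other steady-state libraries stood at 2318 to 4181 CPM. The sum was 1425 to 1776 CPM on day 1, 2580 to 3584 CPM on day 4 and 1905 to 3736 CPM on day 7. No day 1 library reached the sum of any day 4 or day 7 library. Day 1 replicates 2 and 3 had 226 and 261 CPM of Aldh1a2 at mesothelial sums of 1425 and 1660 CPM. Day 4 replicate 2 had less Aldh1a2, 174 CPM, at a higher sum of 2580 CPM. PBS day 1 replicate 2 also had the lowest sum of 9 fibroblast markers, 5513 CPM, beside 7350 to 34650 CPM in the other libraries. That sum leans on Col1a1, which ran from 1122 to 26600 CPM at steady state. Pdgfra, the defining marker, ran only from 659 to 884 CPM there. The part of mesothelial cells or fibroblasts in the level of Aldh1a2 was not tested.

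**Figure D4:**
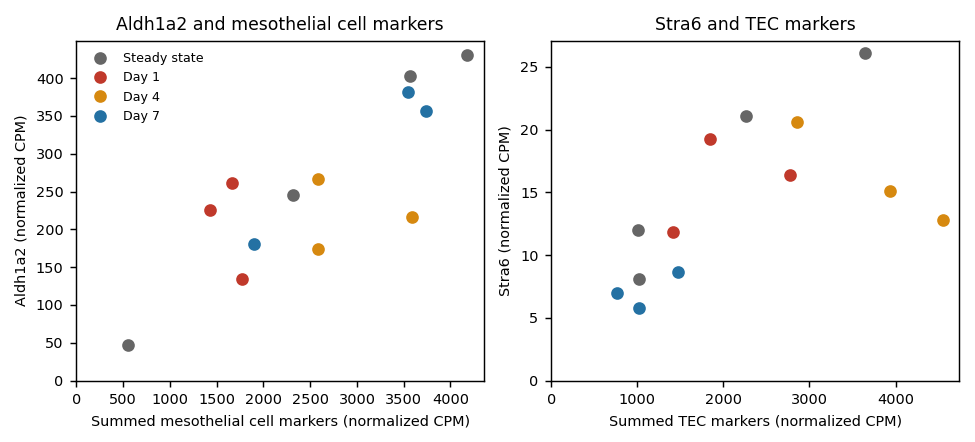
Left, normalized CPM of Aldh1a2 (y axis) against the summed CPM of 5 mesothelial markers (x axis); right, Stra6 against the summed CPM of 9 TEC markers; each point is 1 of 13 libraries, coloured by condition. The steady-state library at 47.0 CPM of Aldh1a2 has the lowest mesothelial sum, 555 CPM, and the 3 day 7 libraries lie at the lower left of the Stra6 panel.

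Aldh1a1 (ENSMUSG00000053279) stood at 141, 209, 247 and 322 CPM at steady state. It stood at 164, 97.1 and 111 CPM on day 1, at 175, 187 and 218 CPM on day 4 and at 302, 174 and 179 CPM on day 7. The 2 lowest libraries were of day 1, and all 3 day 1 libraries lay below all day 4 and day 7 libraries, but day 1 replicate 1 lay above the lowest steady-state library. The mean was 229.7 ± 75.6 CPM (SD, n = 4) at steady state and 124 ± 35.1 CPM (SD, n = 3) on day 1. The log2 difference of -0.89 (SE 0.306, unadjusted p = 0.0123) did not pass after adjustment (edgeR adjusted p = 0.161), and its adjusted p ran from 0.0820 to 0.362 over 17 settings. From day 1 to days 4 and 7 the differences were 0.64 (edgeR adjusted p = 0.406) and 0.81 (0.140).

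Aldh1a3 (ENSMUSG00000015134) stood at 45.2, 116, 63.2 and 150 CPM at steady state, at 93.9, 85.2 and 97.9 CPM on day 1, at 90.5, 87.2 and 50.6 CPM on day 4 and at 121, 59.7 and 85.9 CPM on day 7. All later libraries lay within the range of the steady-state libraries. On day 1 the log2 difference was -0.02 (95% interval -0.84 to 0.80, edgeR adjusted p = 0.985).

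Set side by side per kilobase of exon, Aldh1a2 gave the largest share of the summed level of these 3 genes in 12 of 13 libraries, at 52.6% to 74.2%. The exception was PBS day 1 replicate 2, with 35.1% from Aldh1a2 and 48.4% from Aldh1a1. Aldh1a1 gave 14.2% and 14.3% in day 1 replicates 3 and 2, the 2 lowest shares of any library, but 29.4% in day 1 replicate 1. The share of Aldh1a3 was 5.67% to 18.0%. The summed level ran from 59.2 to 288 CPM per kb at steady state, from 113 to 159 on day 1, from 134 to 173 on day 4 and from 128 to 256 on day 7.

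**Figure D5:**
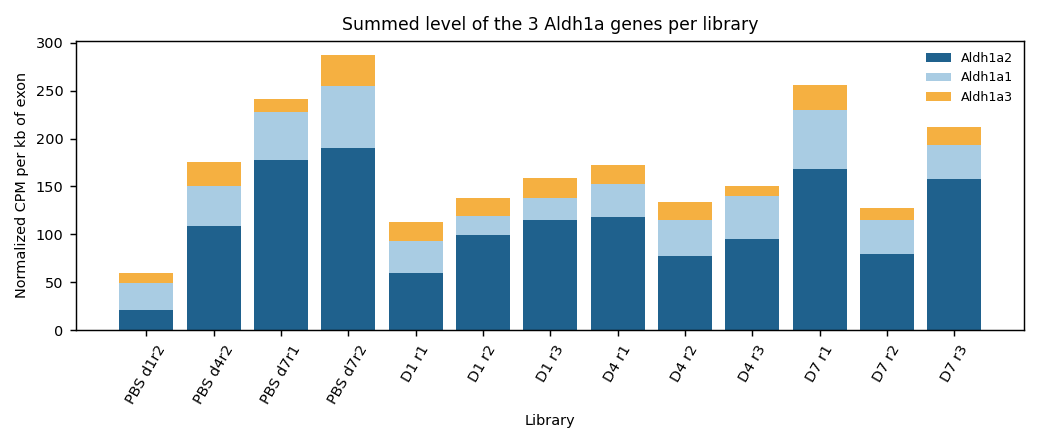
Summed level of Aldh1a2, Aldh1a1 and Aldh1a3 (stacked bars, normalized CPM per kb of exon, from 0) in each of the 13 libraries (x axis; PBS libraries by the day and replicate of their column names, D for day after TBI). Aldh1a2 is the largest segment in every bar except the first, PBS day 1 replicate 2, which is also the shortest at 59.2 CPM per kb.

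Cyp26b1 encodes a cytochrome P450 that degrades retinoic acid. It had the lowest level of the 9 genes, with a mean of 0.620 CPM per kb and 26 to 253 counts per library. Cyp26b1 (ENSMUSG00000063415) stood at 4.71, 2.18, 4.17 and 1.26 CPM at steady state, at 3.73, 2.93 and 5.30 CPM on day 1, at 4.52, 2.32 and 3.46 CPM on day 4 and at 4.47, 2.29 and 1.82 CPM on day 7. All conditions overlapped. On day 1 the log2 difference was 0.37 (95% interval -0.65 to 1.38, edgeR adjusted p = 0.735).

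Rarb encodes retinoic acid receptor beta, a receptor whose own gene is a classic target of retinoic acid. Rarb (ENSMUSG00000017491, chr14:16430839-16819156, minus strand) stood at 7.13, 17.1, 9.83 and 10.7 CPM at steady state. It stood at 6.05, 11.7 and 12.7 CPM on day 1, at 15.7, 9.24 and 9.77 CPM on day 4 and at 21.3, 9.67 and 9.35 CPM on day 7. All conditions overlapped. The log2 differences from steady state were -0.14 (95% interval -1.0 to 0.72), 0.05 (-0.81 to 0.90) and 0.26 (-0.59 to 1.11) on days 1, 4 and 7, and edgeR's adjusted p was 0.889, 0.967 and 0.907. Of the 5265 exonic bases of Rarb, 2020 (38.4%) are also exonic in Gm48162 or Top2b, so its counts are uncertain. None of the other 8 genes has exonic bases shared with another gene.

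At steady state the order of the levels per kilobase was Aldh1a2 (124 ± 77.8 CPM per kb), Aldh1a1 (46.6 ± 15.3), Dhrs3 (38.0 ± 22.1), Aldh1a3 (20.3 ± 10.5), Rdh10 (10.3 ± 1.79), Crabp1 (3.28 ± 1.84), Stra6 (2.89 ± 1.41), Rarb (2.13 ± 0.805) and Cyp26b1 (0.576 ± 0.305; SD, n = 4 each). The genes of retinol and retinaldehyde conversion lay above the carrier, both receptors and the degrading enzyme. Neighbours differed by less than the larger of their SDs all the way from Aldh1a2 to Rdh10 and from Crabp1 to Rarb, and by more than that between Rdh10 and Crabp1 and between Rarb and Cyp26b1. Aldh1a2 had a level above 98.1% of all genes tested, over all libraries, and Cyp26b1 above 30.8%.

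The wider pathway was described with a list of 46 other genes of retinoid delivery, oxidation, binding, degradation, reception and response, of which 41 passed the filter. Against steady state, edgeR called 0 of these 41 on days 1, 4 and 7. The numbers at an unadjusted p under 0.05 were 2, 6 and 7 of 41, beside 17.2%, 13% and 13.5% of all genes. DESeq2 called 1, 0 and 5 of 41, beside 7.00%, 3.23% and 5.41%. Between days 1 and 4, edgeR called 0 of 41. There, 2 had an unadjusted p under 0.05 (13.7% of all genes) and DESeq2 called 0 (4.80%). Between days 4 and 7, edgeR also called 0, with 8 at an unadjusted p under 0.05 (18.7% of all genes) and 7 called by DESeq2, all lower on day 7 (9.60%). Between days 1 and 7 edgeR called 1 (8.13% of all genes), with 9 at an unadjusted p under 0.05 (23.9%) and 8 called by DESeq2, all lower on day 7 (14.7%). The gene that edgeR called was Ttr, which encodes transthyretin, the plasma protein that carries retinol binding protein. Ttr had 69, 10 and 42 counts on day 1 and 2, 2 and 0 counts on day 7 (edgeR adjusted p = 0.0141), and day 7 was at the floor of 3 counts, so no fold is given.

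By role, the median log2 fold change on day 7 against steady state was -0.50 for the 10 genes of delivery and storage and -0.28 for the 12 tested dehydrogenases and reductases. It was -1.85 for the 3 tested genes of degradation and binding, -0.24 for the 5 receptors and 0.01 for the 11 tested response genes. The value of -1.85 is that of Crabp2, beside -2.11 for Cyp26a1 and -0.45 for Fabp5. The steady-state libraries of Crabp2 varied widely (CV 118.5%) and overlapped with those of day 7 (edgeR adjusted p = 0.238). On day 1 the same medians were -0.16, 0.18, 0.06, 0.11 and -0.21. The median over all 41 genes on day 7 was -0.26, beside 0.00 for all genes tested.

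The 5 genes that DESeq2 called on day 7 against steady state were all lower, and none passed in edgeR. They were Ttr, Lrat, which esterifies retinol for storage, Sdr16c5, a retinol dehydrogenase, Cyp26a1, which degrades retinoic acid, and Cdx1, a homeobox gene that responds to it; they are named after their values were seen. Lrat stood at 1.90 ± 1.08 CPM (SD, n = 4) at steady state and 0.427 ± 0.139 CPM (SD, n = 3) on day 7, without overlap (log2 difference -2.15, edgeR adjusted p = 0.117). Cyp26a1 stood at 3.91 ± 3.07 and 0.904 ± 0.144 CPM, also without overlap (-2.11, edgeR adjusted p = 0.158). These are low levels. Day 7 was also the time with low TEC marker sums, at 761 to 1470 CPM, which overlapped with 1007 to 3650 CPM at steady state. On day 4, with TEC sums of 2851 to 4553 CPM, Lrat stood at 1.04 ± 0.512 CPM and Cyp26a1 at 1.53 ± 0.247 CPM (SD, n = 3). The part of TECs in these levels was not tested.

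Other genes of the list were more abundant. The receptor gene Rara stood at 43.8 ± 5.08 CPM (SD, n = 4) at steady state and at 47.2 ± 14.4, 55.0 ± 6.28 and 57.5 ± 4.04 CPM (SD, n = 3) on days 1, 4 and 7. Rarg stood at 36.9 ± 6.15, 38.0 ± 8.82, 43.2 ± 9.05 and 30.2 ± 3.28 CPM in the same order. No difference of Rara or Rarg was called.

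Among the members themselves, the strongest likeness over the 13 libraries was between Cyp26b1 and Stra6 (Pearson's r = 0.62 on log2 values) and between Aldh1a2 and Aldh1a3 (0.60). Aldh1a1 and Crabp1 ran opposite (r = -0.81), with the 3 day 1 libraries high in one and low in the other. These correlations are descriptions over 13 libraries that share conditions and the libraries that stood apart.

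Over 14580 genes with a mean of at least 1 CPM, the genes most like Crabp1 across the 13 libraries were Saa2 (r = 0.958), Ptafr (0.954) and Ifit1 (0.940). Those most like Stra6 were Fcgbp (0.952), Lpo (0.951) and Dnaic2 (0.948), and those most like Rdh10 were Exoc8 (0.985), Rac1 (0.984) and Klf16 (0.983). Those most like Aldh1a1 were Pdgfd (0.953), 2810468N07Rik (0.951) and Cd34 (0.946). For Aldh1a2 they were Plxna4 (0.931), Crls1 (0.929) and Dhrs9 (0.914), the last of these a gene of the wider retinoid list. For Aldh1a3 the likeness was lower, at 0.877 for Rxfp2, 0.869 for Ugp2 and 0.862 for Creld1. The genes nearest to Dhrs3 were Anapc4 (0.957), Atxn10 (0.920) and Pabpc4l (0.905). For Cyp26b1 they were Dab1 (0.856), Gsap (0.852) and Tle4 (0.836), and for Rarb they were Flot2 (0.912), Ccdc122 (0.908) and Camk1 (0.906).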

How the data were processed

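Bulk RNA-seq counts of 13 libraries were used. The authors trimmed reads with Trimmomatic 0.38, aligned them with STAR 2.7.0e to GRCm38.p5 and counted them with featureCounts 1.6.3, per the submitters' processing notes. The deposited values are raw counts per gene, and the deposited exon length was used for levels per kb. The paper states default parameters for featureCounts and does not name strand. Counting was taken to ignore strand, and so were the exon overlaps given here. No column was left unmapped (0). The steady-state columns name a PBS day and replicate that the labels do not, and they were treated as 1 group.

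All 13 libraries were fitted with edgeR 4.0.16 (R 4.3.3; TMM, filterByExpr by condition, quasi-likelihood F-test, common dispersion 0.177), with condition as the term and Benjamini-Hochberg adjustment over 19984 genes. Standard errors are the log2 fold change divided by the square root of F. DESeq2 1.42.0 was an alternative. Log2 values for correlations used CPM + 0.5. Steps were tested on simulated data. Depth was 15721866 to 52056896 counts; 3 or fewer counts were taken as the floor.

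Every member was tested in every comparison and its levels are given at every time point, but not every difference is printed. Of the wider list, the gene that edgeR called was named, with the 5 that DESeq2 called on day 7 against steady state. The other DESeq2 calls of that list are given as counts. The 3 genes most like each member were also named. Members, lists and tests were chosen with earlier results of these data known. No pairing of libraries is stated, so same-numbered libraries were not treated as pairs. The mean correlation of their deviations was -0.745 for days 1 and 4, -0.143 for days 1 and 7 and 0.0411 for days 4 and 7. These values cannot settle pairing, as the libraries that stood apart weigh on them. Day 1 replicate 1 and day 4 replicate 2, for example, correlated at 0.789. Symbols came from GENCODE M21 (53274 of 53379 identifiers matched). Gene coordinates and exon overlaps came from the exon positions deposited with the counts. The levels of 1 gene of the wider list are not reported here.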

Additional observations from a re-analysis of the deposited data

How the results depend on the processing

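The count of members called on day 1 against steady state was 1, and was 0 in a fit of only the 2 conditions, with the replicate block, without the 4 libraries that stand apart and with the thymocyte score as a covariate; leaving out 1 library gave 0 to 1. For day 4 against day 1 the count of 1 was 0 with the replicate block, without the 4 libraries that stand apart, without day 7 replicates 2 and 3, with the tag family and with the thymocyte score as covariates, and 0 in each fit with 1 library left out. For day 7 against day 1 the count of 1 became 2 with DESeq2, and 0 without the 4 libraries, without day 7 replicates 2 and 3 and with the thymocyte score. DESeq2 also gave 1 in place of 0 for day 7 against steady state and against day 4. These alternatives without the libraries that stand apart or rich in thymocyte RNA, and those with the tag family or thymocyte score, were chosen after seeing the data. The first leaves 1 library on day 4, and the second leaves 1 on day 7, which was assumed to vary like the others. In the replicate block, steady state took its numbers from the column names. There the log2 fold change of Crabp1 was 1.92 on day 1 against steady state (edgeR adjusted p = 0.109). It was -2.06 from day 1 to day 4 (0.121) and -2.39 from day 1 to day 7 (0.0350). Whether equal numbers mark paired libraries could not be told, so no choice between this fit and the main one is made. The causes of the lost calls were not tested.

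No called difference changed direction under any alternative. Of 891 log2 fold changes recomputed, 104 changed sign, 0 of them called, and the largest of these was 0.534 in size in the main analysis. RLE in place of TMM moved the median gene by 0.056 on the log2 scale on day 1. Of 9 members at steady state, 0 had a library far from the other 3 by Dixon's ratio (0.45 are expected by chance). Counts per library were 24 to 481 for Crabp1, 26 to 253 for Cyp26b1 and at least 1402 for each Aldh1a gene.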
